A study of Mus musculus with 14 samples.

Results

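CTCF binding was compared between K20R and WT mouse embryonic stem cells at day 0, before differentiation. The sites were found by merging peaks that overlapped by at least 1 bp over the 2 WT and the 2 K20R day 0 peak lists. This gave 80387 sites, of the 86652 sites that all 8 CTCF lists of the series (days 0 and 4) gave when merged in the same way. A site was called lost if both WT lists and no K20R list held it, gained if both K20R lists and no WT list did, and kept if it was in all 4. By this rule 43503 sites (54.1%) were kept, 3916 were lost and 203 were gained. The remaining sites were called in other combinations of lists, and 19217 of them were in the first WT list alone.

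The study set E14Tg2A embryonic stem cells with unaltered CTCF (WT) beside cells of the same line in which CRISPR/Cas9 had replaced lysine 20 of CTCF by arginine (K20R). Both were grown on inactivated mouse embryo fibroblasts in serum with LIF and 2i, and were also taken to day 4 as embryoid bodies made in hanging drops without LIF. CTCF-bound DNA was recovered by chromatin immunoprecipitation and sequenced (ChIP-seq), with 2 libraries of each genotype and day that the methods call biological replicates. The series holds 14 samples, and its inputs and H3K27ac libraries were not analysed here. The number of cell clones behind each genotype is not given in the sources used here, so genotype and clone cannot be told apart. Peak lists hold no transcripts, so the stem cell identity could not be checked against marker genes, and CTCF from the fibroblast feeder cells would be counted with that of the stem cells.

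CTCF is a DNA-binding protein with a row of zinc fingers that reads a long, directional motif. It is best known for halting the cohesin complex as cohesin extrudes chromatin loops, which places loop anchors and domain borders at CTCF sites, and it also insulates promoters from enhancers and keeps imprinted genes under allele-specific control. Lysine 20 lies in the N-terminal part of the protein, outside the zinc fingers, and arginine at that position cannot be acetylated. In rodents many CTCF motifs lie within copies of transposable elements, next to those in unique sequence.

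The motif and its surroundings are printed here for the sites on which the comparison turns, before their values. A 19 bp matrix learned from the 1000 kept sites of highest rank gave this consensus, in which N stands for a position where no base reached a share of 0.6:

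Consensus: NNNCCANCAGGGGGCGCNN

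The sequences below are reference sequence of GRCm38 (mm10), 5′ to 3′ on the strand of the best match, with the matched 19 bp in capitals and 20 bp of flank on each side in lower case. First come a pair of the strongest kept sites. The site in an intron of Fam129b lay at chr2:32912609-32912667 (minus strand), and the site at the start of Exosc8, a subunit of the RNA exosome, at chr3:54735449-54735507 (plus strand).

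Fam129b, kept: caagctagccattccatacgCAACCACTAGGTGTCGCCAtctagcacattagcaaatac
Exosc8, kept: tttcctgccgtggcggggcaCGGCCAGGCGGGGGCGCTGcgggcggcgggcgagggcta

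The next 5 belong to lost sites. They are shown because they are among the 10 lost sites of highest rank, and because those near Ngdn and in Trrap share the bases gatctcatta after the motif. The site in an intron of Iqgap1, a scaffold protein of the cytoskeleton, lay at chr7:80741157-80741215 (minus strand). The nearest start site to the intergenic site at chr14:61085515-61085573 (minus strand) was that of Tnfrsf19, a receptor of the tumour necrosis factor receptor family. Ngdn was nearest to the site at chr14:55025686-55025744 (plus strand), and Cdc7, a kinase that fires replication origins, to that at chr5:106996050-106996108 (plus strand). The site in an intron of Trrap, a scaffold of histone acetyltransferase complexes, lay at chr5:144793552-144793610 (minus strand).

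Iqgap1 intron, lost: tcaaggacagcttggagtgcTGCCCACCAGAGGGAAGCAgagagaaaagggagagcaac
Tnfrsf19, lost: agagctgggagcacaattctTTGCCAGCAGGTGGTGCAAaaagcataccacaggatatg
Ngdn, lost: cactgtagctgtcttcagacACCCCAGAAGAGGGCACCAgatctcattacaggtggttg
Cdc7, lost: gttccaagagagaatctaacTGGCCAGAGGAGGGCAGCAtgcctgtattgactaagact
Trrap intron, lost: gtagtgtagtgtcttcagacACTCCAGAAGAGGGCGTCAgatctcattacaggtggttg

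Gained sites are represented by 3 of the 10 highest in rank. The nearest start site to chr1:90590974-90591032 (minus strand) was that of Cops8, a subunit of the COP9 signalosome. The site at chr9:106099797-106099855 (plus strand) lay near Col6a4, a collagen VI gene, and that at chr8:40961859-40961917 (plus strand) in an intron of Pdgfrl.

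Cops8, gained: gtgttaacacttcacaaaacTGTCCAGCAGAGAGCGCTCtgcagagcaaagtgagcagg
Col6a4, gained: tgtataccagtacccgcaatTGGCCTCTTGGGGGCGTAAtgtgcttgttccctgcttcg
Pdgfrl intron, gained: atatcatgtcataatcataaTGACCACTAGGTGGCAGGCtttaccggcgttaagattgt

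The last 4 belong to kept sites at which K20R lay lowest or highest against WT. The first lay near Gm24949 and Snf8 at chr11:96031881-96031939 (minus strand), and the second in an intron of Vav2 at chr2:27287777-27287835 (minus strand). On the higher side, 1 site lay near the noncoding gene 4930573I07Rik at chr5:128515535-128515593 (minus strand), and another at the start of Dgcr6 at chr16:18052788-18052846 (plus strand).

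Gm24949, fell: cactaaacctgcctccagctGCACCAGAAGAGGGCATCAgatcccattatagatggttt
Vav2 intron, fell: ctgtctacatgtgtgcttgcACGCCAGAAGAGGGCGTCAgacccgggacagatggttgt
4930573I07Rik, rose: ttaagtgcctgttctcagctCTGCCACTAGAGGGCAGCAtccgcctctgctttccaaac
Dgcr6, rose: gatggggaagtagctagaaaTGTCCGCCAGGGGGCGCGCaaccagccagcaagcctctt

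The first question was whether K20R cells had fewer CTCF peaks at day 0. The WT lists held 77657 and 52698 peaks, and the K20R lists held 52076 and 51905 peaks. The first WT list was thus much longer than the second, by 24959 peaks or 1.47 times, and the second WT list lay close to the K20R lists. Both WT lists were longer than both K20R lists. WT averaged 65177.5 ± 17649 peaks (SD, n = 2), and K20R averaged 51990.5 ± 121 (SD, n = 2). K20R minus WT was -13187 peaks (two-sided exact permutation test, p = 0.333, the smallest that 2 lists against 2 allow). The difference was smaller than the SD between the WT lists, and without the first WT list it was -707.5 peaks.

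The authors had brought all CTCF libraries to the same number of reads before calling peaks. The pileup, the number of extended reads that cover a peak's summit, could be solved from each peak's fold enrichment and p-value. It is the depth behind each value given here. Its lowest value was 5 reads in each list, its median was 25 and 23 reads in the WT lists and 35 in both K20R lists. The median peak was therefore higher in both K20R lists than in either WT list. A pileup of 100 reads or more was reached by 1752 and 410 peaks in WT and by 6894 and 6375 peaks in K20R, so both K20R lists held more such peaks than either WT list. The background, the reads per summit that the peak caller took from the control and its surroundings, had nearly the same floor in the 4 lists, 0.721 to 0.746 reads.

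Lists of the same genotype did not agree equally well. The share of shared sites among all sites of a pair of lists was 0.836 for the K20R pair and 0.647 for the WT pair. It was 0.776 to 0.779 between the second WT list and the K20R lists, above that of the WT pair, and 0.643 between the first WT list and either K20R list. Over kept sites the order was different. Pearson's r of log2 fold enrichment was 0.955 for the K20R pair, 0.852 for the WT pair and 0.772 to 0.792 across genotypes, over 43503 sites of the same libraries. By this correlation the WT lists were closer to each other than to K20R. In level they were not, with a median pileup at kept sites of 50 and 28 reads in WT and 45 and 44 in K20R. Spearman's correlation of peak width was 0.603 for the WT pair and 0.656 to 0.663 between the second WT list and the K20R lists. The first WT list also held the most weak peaks, 14377 of at most 10 reads, against 8259 in the second WT list and 6548 and 6624 in K20R.

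Lost sites far outnumbered gained sites, but they were weak. The 3916 lost sites were 4.87% of all day 0 sites and 7.70% of the 50863 sites called in both WT lists. The 203 gained sites were 0.253% of all day 0 sites. The median pileup of lost sites was 14 and 9 reads in the WT lists, against 50 and 28 reads at kept sites. Gained sites had a median of 9 reads in both K20R lists, against 45 and 44 reads at kept sites. The sites found in the first WT list alone had a median of 10 reads there. Lost and gained sites therefore lay close to the lowest pileup called, 5 reads.

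**Figure D1:**
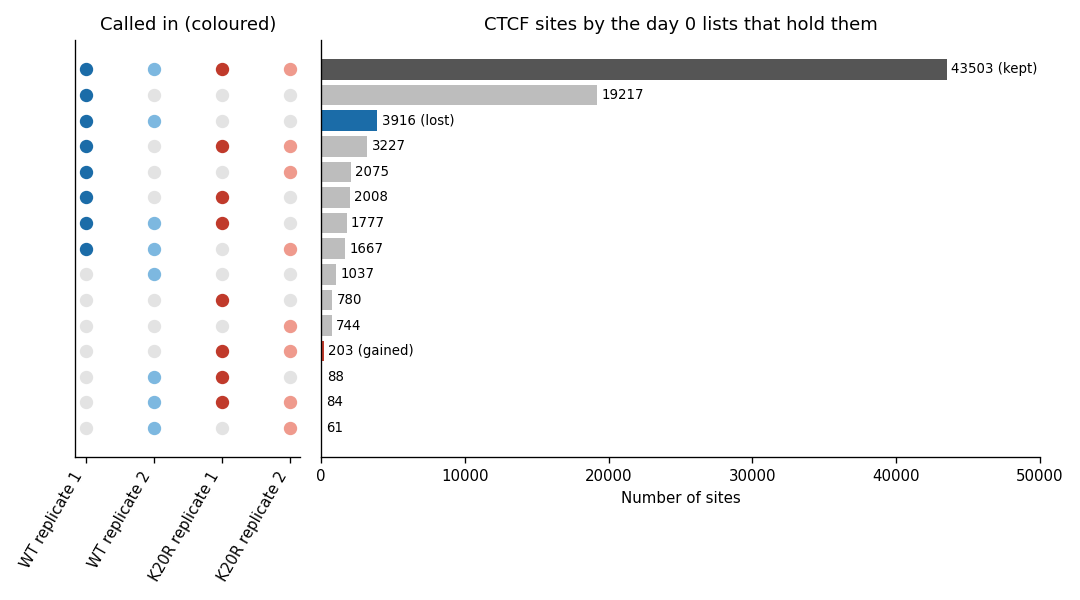
The left panel marks which of the 4 day 0 lists called each combination of sites, and the right panel plots the number of sites in that combination. The largest class is the 43503 kept sites, and sites of the first WT list alone (19217) outnumber the 3916 lost sites.

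Few lost sites were strong in both WT lists. A pileup of at least 10 reads in both was reached by 1659 lost sites (42.4%), at least 20 reads by 15 and at least 30 reads by 1. Of the gained sites 49 (24.1%) reached 10 reads in both K20R lists and 0 reached 20. At kept sites 65.4% reached 20 reads in all 4 lists. When sites were ordered by their mean percentile of fold enrichment in the WT lists, the share lost among lost and kept sites was 80.3% in the lowest 10 percentiles and 36.2% from 20 to 30. It was 3.93% from 40 to 50 and 0.547% from 50 to 60. No lost site lay above percentile 80.

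The balance of lost and gained sites depended on the length of the lists. When each list was cut to its 51905 strongest peaks, the length of the shortest list, there were 1701 lost and 1548 gained sites and 42097 kept sites. Without the first WT list there were 5025 lost and 3460 gained sites, and without the second WT list 23148 lost and 287 gained sites. Lost sites exceeded gained sites in each of these versions, by the smallest margin in lists of one length.

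**Figure D2:**
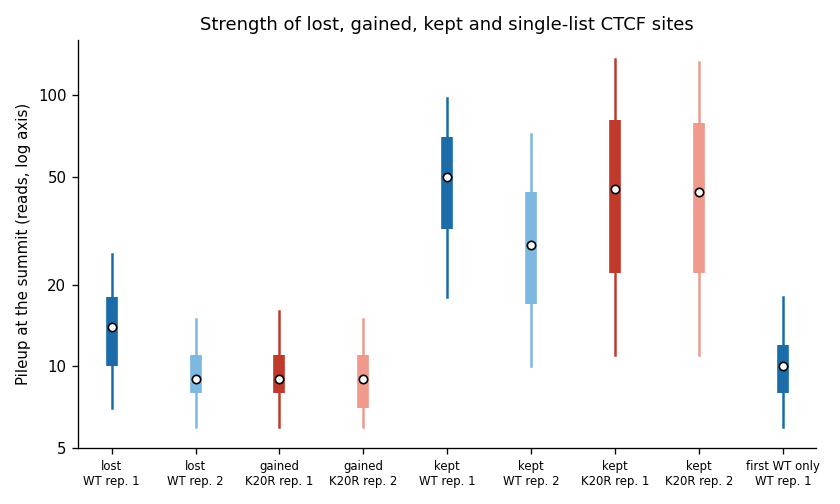
Pileup at the summit in reads (log axis) is plotted for lost, gained and kept sites in each list that called them. Lost sites (medians 14 and 9 reads in the WT lists) and gained sites (9 and 9 in the K20R lists) sit near the lower limit of 5 reads, and kept sites have medians of 28 to 50.

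The share of sites with a CTCF motif lay lower for lost and gained sites than for kept sites, also after weighting for strength. Weighted kept sites had the deciles of lost sites by mean WT percentile, or of gained sites by mean K20R percentile. They were by definition also called in the other genotype, so matched strength, here and below, does not cover all lists. The matrix itself was learned from kept sites. A motif, counted on either strand within 100 bp of the summit, scored above the level that 5% of sequences shifted by 1 kb passed. It was found at 76.6% of all sites, at 85.8% of kept sites (95% Wilson interval 85.5 to 86.1) and at 63.7% of sites in the first WT list alone. It was found at 64.5% of lost sites (63.0 to 66), below the 75.1% of kept sites weighted to the strength deciles of lost sites. Gained sites had it at 63.1% (56.2 to 69.4), below 73.0% in kept sites weighted to their own deciles. This did not hold for gained sites in other versions: the share was 73.3% in lists of one length and 76.8% without the first WT list. Under a stricter score, passed by 1% of shifted sequences, the shares were 55.5% of kept, 19.9% of lost and 19.7% of gained sites, with 33.6% and 31.2% in the weighted kept sites. These intervals reflect only the number of sites counted, taken as if each site were independent of the others. The weighting rests on few kept sites in the weakest decile (97 for lost and 92 for gained sites).

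Within strength classes the order held where numbers allowed. Between the 20th and 30th WT percentiles the motif was at 66.2% of 1312 lost sites (63.6 to 68.7) and at 75% of 2317 kept sites (73.2 to 76.7). Between the 40th and 50th it was at 72.6% of 219 lost sites (66.3 to 78.1) and at 79.7% of 5359 kept sites (78.6 to 80.8). In that class the intervals did not overlap either. From 50 to 60 only 33 lost sites were left, and their interval (52.7 to 82.6) overlapped that of kept sites (82.3 to 84.1).

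Where a motif was present, its letters differed most between lost sites and kept sites of matched strength at positions 15 and 16. C at position 15 of the 19 was held by 77.7% of the motifs in lost sites (76.0 to 79.3), against 84.1% in kept sites of matched strength. G at position 16 was held by 43.1% (41.2 to 45.0) against 53.0%. Both belong to the G-rich core of the consensus printed above. Smaller differences stood at other positions: G at position 14 was held by 89.7% (88.5 to 90.8) against 94.1%, and C at position 8 by 30.5% (28.8 to 32.3) against 25.7%, where lost sites were higher. A CG dinucleotide in the motif, the sequence on which cytosine methylation acts, was present at 21.6% of all lost sites (20.4 to 22.9) and at 36.4% of kept sites of matched strength. At gained sites the share was 26.6% (21 to 33.1) against 31.5%, which lay within the interval.

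**Figure D3:**
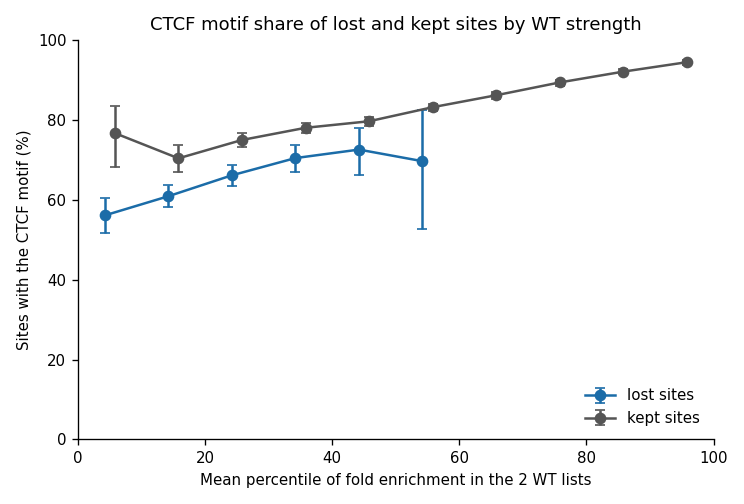
The plot gives the percentage of sites with a CTCF motif against the mean WT percentile of fold enrichment in bins of 10, for lost and for kept sites, with 95% Wilson intervals. Lost sites lie below kept sites in each bin up to 40 to 50 (72.6% against 79.7%), and among kept sites the share rises from 70.4% in the bin from 10 to 20 to 94.5% in the highest.

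Summits of lost and gained sites lay farther from the motif. The motif centre was within 25 bp of the summit at 88.1% of kept sites with a motif, at 58.1% of the 2526 lost ones and at 64 of the 128 gained ones (41.5 to 58.5%). This comparison was not weighted for strength, and weaker peaks have fewer reads to place a summit.

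Motifs in masked repeats were common in all classes. A motif within a repeat was found at 29.2% of lost sites (27.8 to 30.6), 36.9% of gained sites (30.6 to 43.8) and 28.1% of kept sites, against 36.7% and 33.6% in the kept sites weighted to lost and gained strength. The bases gatctcatta, which follow the motif at the lost sites near Ngdn and in Trrap, were searched for with at most 1 mismatch in the 15 bases after the motif. They were found at 11% of all sites and lay almost always in masked repeats (99.5%). They followed the motif at 10.3% of lost sites (9.35 to 11.3), at 4.49% of those kept and at 13.3% of kept sites of matched strength. Gained sites had them at 17.7% (13.1 to 23.6) against 12.1%, and sites of the first WT list alone at 20.9%. This sequence therefore marked weak sites of any class more than lost sites. It was chosen after the sequences had been seen.

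The shares of lost sites in CpG-rich sequence and near start sites lay below those of weighted kept sites, and for gained sites they did not. A summit within 3 kb of a start site was found at 25.2% of lost sites (23.9 to 26.6), 34.5% of gained sites (28.3 to 41.3) and 23.0% of kept sites. Weighting kept sites to either class gave 31.7%. Lost sites thus lay above kept sites before weighting and below them after it. Their share was 22.5% in lists cut to the same length and 30.3% (29.1 to 31.6) without the first WT list. Kept sites were not weighted anew in these versions. The first minus the second WT list had a Spearman correlation of -0.31 with the CpG count over kept sites. At least 8 CG dinucleotides around the summit were present at 9.81% of lost sites (8.91 to 10.8) against 18.2%, and at 26.6% of gained sites (21 to 33.1) against 15.8%. Lost sites lay in introns at 53.7% (52.1 to 55.2) and in intergenic sequence at 36.0% (34.5 to 37.5), against 47.0% and 41.2% at matched strength. A further kept site lay within 10 kb of 50.7% of the lost ones (49.1 to 52.3), with 48.5% at matched strength.

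The strongest lost sites were strong in both WT lists only in a few cases. The lost site in Iqgap1, at chr7:80740916-80741322, had a pileup of 63 and 30 reads in the WT lists and was called in neither K20R list. It was the single lost site with at least 30 reads in both. The site in Kcp, a regulator of bone morphogenetic protein signalling, had 46 and 23 reads, and the site near Tnfrsf19 had 34 and 24. At day 4 the Iqgap1 site was called in all 4 lists, with 53 and 51 reads in WT and 16 and 23 in K20R, so K20R was lower there too. The Kcp site had 37 and 45 reads in the day 4 WT lists and was in neither day 4 K20R list.

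The other 7 of the 10 highest ranked lost sites ranged from 24 to 43 reads in the first and from 15 to 24 in the second WT list. The site near Cdc7 had 26 and 23 reads, and the site in an intron of Ddx55, an RNA helicase gene, had 36 and 18. Firre, an X-linked noncoding RNA gene with many CTCF sites, had a lost intronic site with 43 and 15 reads and no motif above the threshold. The sites near Ngdn (36 and 20), near Scube2 (24 and 22), in Trrap (41 and 24) and in an exon of Ankrd35 near Pias3 (33 and 18) made up the rest. Both day 4 WT lists held 9 of the 10, and both day 4 K20R lists held 3. A motif was present at 8 of the 10, and at 4 of them it lay in a masked repeat.

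Among lost sites within 3 kb of the start of a coding gene, the 5 of highest rank were those of Ddx55, Scube2, Vstm2l (32 and 21 reads), Rbfox3 (27 and 18), a neuronal splicing regulator, and Gm10447 (31 and 16). All 5 were called in both day 4 WT lists. At the Vstm2l site both day 4 K20R lists also held a peak, with 14 and 17 reads against 24 and 22 in WT.

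Gained sites were weaker still. The highest ranked, near Cops8, had 19 and 26 reads in the K20R lists. An exonic site in Ntng1, a membrane-anchored netrin, had 21 and 17 reads, and a site in Ttc27 had 22 and 14. The site near Col6a4 had 15 and 15 reads and the site in Pdgfrl 16 and 14. The other 5 of the first 10 had 11 to 19 reads in the first and 12 to 19 in the second K20R list. Among the 10 sites 0 were called in both day 4 WT lists and 1, in Ntng1, was called in both day 4 K20R lists. A motif was present at 8 of them.

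Day 4 libraries were not used by the rule, and come from the same WT and K20R cells. The same pattern, both WT lists and no K20R list, held at day 4 for 31.5% of lost sites (30.1 to 33.0), against 10.8% of all day 0 sites. All day 0 sites include the stronger kept sites, of which 3.62% showed it, and no share at matched strength was computed. The day 4 WT lists were also longer, with 61088 and 61436 peaks against 41360 and 47463 in K20R. For gained sites the pattern of both K20R lists and no WT list held for 2.46% (1.06 to 5.64), against 0.254% of all sites. None of the 4 day 4 lists held a peak at 29.4% of lost and 50.2% of gained sites, against 22.7% of all day 0 sites. Both day 4 WT lists held 49.8% of lost sites, and both day 4 K20R lists held 5.46%, against 66.2% and 48.6% of all sites. Of kept sites 83.9% were called in all 4 day 4 lists.

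Most sites were kept, and at kept sites K20R had a wider range of strength than WT. The SD of log2 fold enrichment over kept sites was 0.71 and 0.81 in the WT lists and 1.09 and 1.07 in the K20R lists. In the weakest decile of kept sites, by mean percentile over the 4 lists, the median pileup was 19 and 11 reads in WT and 12 and 12 in K20R. In the strongest decile it was 91 and 68 reads in WT and 128 and 123 in K20R. The ratio of K20R to WT mean pileup rose from 0.80 in the weakest decile to 1.58 in the strongest. In the weakest decile the K20R lists lay between the WT lists, and in the strongest decile both lay above both.

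**Figure D4:**
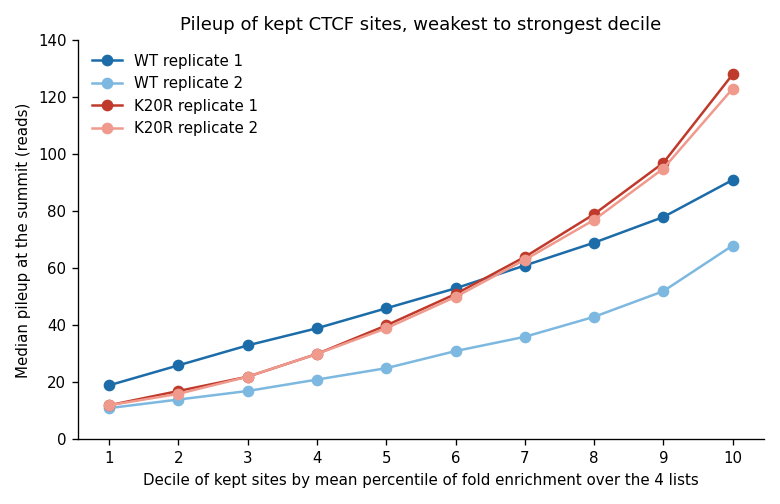
Median pileup in reads is plotted for each of the 4 day 0 lists against the strength decile of kept sites. Both K20R lists lie between the WT lists in the weakest decile (12 and 12 against 19 and 11 reads) and above both in the strongest (128 and 123 against 91 and 68).

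The strongest kept sites show this. The site in an exon of Gdf15, a stress-induced cytokine, had 149 and 182 reads in the WT lists and 442 and 380 in the K20R lists. The Exosc8 site had 138 and 198 reads in WT and 304 and 271 in K20R. The Fam129b site had 154 and 135 in WT and 274 and 225 in K20R. K20R lay above WT at all 3 without overlap, and at none did the centred log2 difference in fold enrichment pass the test described next (1.15 ± 0.86, 0.63 ± 0.68 and 0.44 ± 0.59, SE; limma, Benjamini-Hochberg adjusted p = 0.322, 0.501 and 0.601).

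Fold enrichment was tested at each kept site with limma on log2 values centred on the median of each list, so that a difference is relative to the typical kept site. K20R was lower at 6035 sites (13.9%) and higher at 6772 sites (15.6%) of 43503 (Benjamini-Hochberg adjusted p under 0.05). These calls depended on the scale. Without centring there were 58 lower and 4635 higher sites, after quantile normalisation 2986 and 3447, and on pileup in place of fold enrichment 2459 and 1976. On pileup with quantile normalisation, which gives the lists the same spread, limma called 0 lower and 0 higher sites (3081 and 2653 at an unadjusted p under 0.05, lowest adjusted p = 0.104). All of centred fold enrichment, quantile normalised fold enrichment and pileup called 834 sites lower and 633 sites higher.

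Background moved with these calls. At sites called lower, the median background was 0.76 and 0.77 reads in WT and 1.02 and 1.02 in K20R. At sites called higher it was 1.89 and 1.98 in WT and 0.814 and 0.817 in K20R. Over all kept sites it was 0.945 and 0.99 in WT and 0.963 and 0.962 in K20R. The medians of the lists of one genotype lay close together. The labels hold 1 input per genotype and day, and whether the lists of a genotype share it was not tested. If they do, the limma p-values on fold enrichment hold no spread between inputs, and an input difference would count as replicated. The pileup itself was lower at 89.6% of the sites called lower (median centred log2 difference -0.71, against -0.98 in fold enrichment). It was higher at 97.0% of the sites called higher (0.44 against 0.84). The part of the background in these calls was not tested beyond this split.

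Among the 8 named sites that fell most, the largest difference was at the site near Gm24949, at chr11:96031606-96032056. Its pileup was 76 and 36 reads in WT and 13 and 14 in K20R, with no overlap, and its centred log2 fold enrichment fell by 2.55 (SE 0.29; limma, adjusted p = 3.33e-06). The site near Gm3508 went from 58 and 37 reads in WT to 16 and 24 in K20R, and the Vav2 site from 36 and 26 to 11 and 9. The day 4 lists, which were not used in this choice, held the Gm24949 site with 38 and 28 reads in WT and not in K20R. The Vav2 site had 8 and 11 reads in the day 4 WT lists and was likewise in neither day 4 K20R list.

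The others that fell were near Ntng2 (32 and 26 reads in WT, 9 and 12 in K20R), in Macf1 (36 and 23, 10 and 11), near Gm47835 (24 and 20, 11 and 8), near Snord13 (38 and 22, 21 and 20) and near Gm12411 (41 and 24, 20 and 25). K20R did not overlap WT at the first 4 of these, and at the Gm12411 site it did. All 8 passed after quantile normalisation of fold enrichment, and 6 of 8 passed on pileup; the sites near Snord13 and Gm12411 did not (limma, adjusted p = 0.0868 and 0.0794). K20R background at the 8 sites was 1.44 to 3.85 reads against at most 0.99 in WT.

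Of the 8 named sites that rose most, the highest was near 4930573I07Rik, at chr5:128515249-128515712. Its pileup was 83 and 46 reads in WT and 140 and 121 in K20R, without overlap, and its centred log2 fold enrichment was higher by 2.08 (SE 0.19; limma, adjusted p = 8.40e-07). On pileup its difference was 0.82 (adjusted p = 0.0146). The site at the start of Dgcr6 had 110 and 92 reads in WT and 167 and 167 in K20R, and its pileup difference of 0.48 did not pass (adjusted p = 0.298). The remaining 6 were in Adgrb1, Stra6l and Celf4 and within 1 kb of the starts of Stim1, a calcium sensor of the endoplasmic reticulum, Rai1, and Foxd2, a forkhead factor. At all 8 sites K20R lay above WT in pileup, background was 3.31 to 4.95 reads in WT and 0.721 to 0.963 in K20R, and 4 of 8 passed on pileup.

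**Figure D5:**
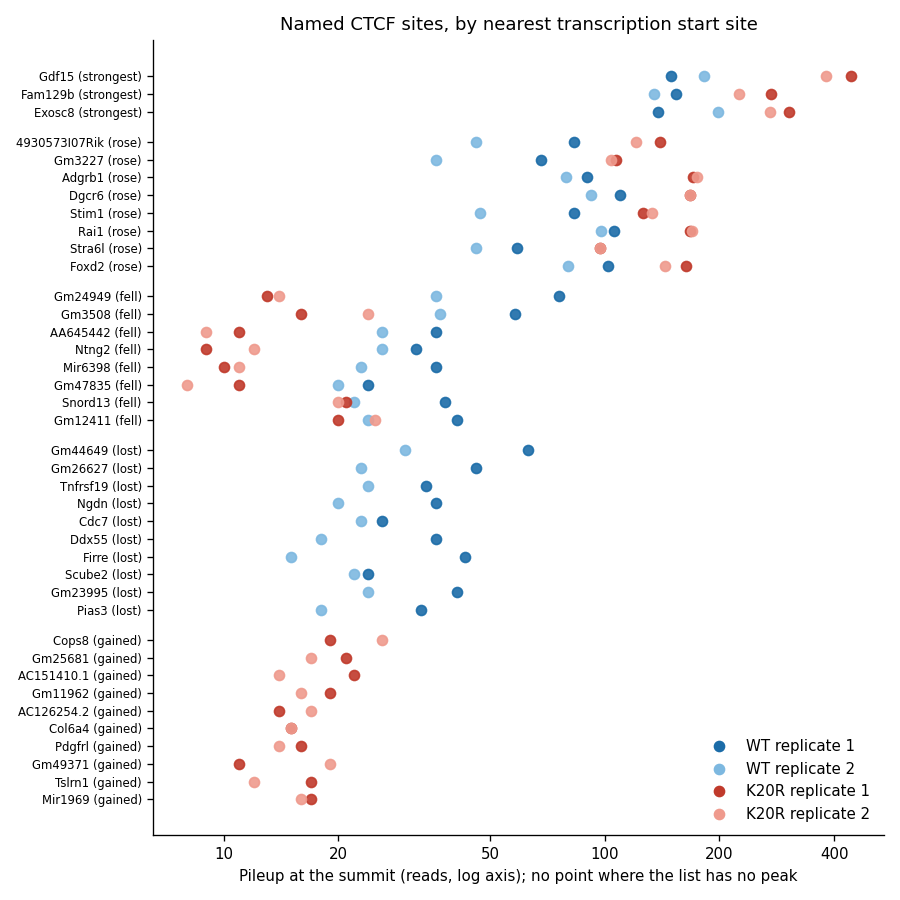
Pileup at the summit in reads (log axis) is plotted for each named site, with 1 point for each day 0 list that called it. Lost sites show WT points only and gained sites K20R points only, by their definition, and at 7 of the 8 kept sites that fell both K20R points lie below both WT points, the exception being the site near Gm12411.

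The direction at called kept sites recurred in the day 4 libraries to different degrees. Of the 834 sites lower on all 3 scales, 571 were called in all day 4 lists. After quantile normalisation 88.3% of these had a day 4 difference below 0, and at 76.2% both K20R values lay below both WT values, against 31.8% of all kept sites called on day 4. Of the 633 higher sites 625 could be followed. Their day 4 difference was above 0 at 68.6%, and both K20R values lay above both WT values at 48.3%, against 31.3% of all kept sites. Over all 36517 kept sites called on day 4, 49.8% lay below 0. The X and Y chromosomes and the segments of chromosomes 14 and 8 described later held 14.9% of the 834 and 15.3% of the 633 sites, against 5.13% of all kept sites. Outside them 88.2% of the lower sites had a day 4 difference below 0, and 66.4% of the higher sites had one above 0. The difference at day 0 and that at day 4 had a Spearman correlation of 0.43 on centred values and 0.20 after quantile normalisation across these sites, which share the cell lines and the motif.

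Ranks were compared in the same way. With kept sites ranked within each list, both K20R lists lay below both WT lists at 13293 sites (30.6%) and above both at 12780 (29.4%). The median absolute difference between genotype means was 10.2 percentile points, against 8.75 between the WT lists and 4.66 between the K20R lists. By at least 20 points K20R lay below at 1993 and above at 2444 sites. The first of these medians is between means of 2 lists and the others are between single lists, so they cannot be set against each other directly.

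Peak width rose with pileup, and at low pileup the first WT list had wider peaks than the other lists. Over the 42664 kept sites with 1 peak in each list, the median width was 392 and 321 bp in the WT lists and 375 and 379 bp in the K20R lists. The K20R lists lay between the WT lists. On centred log2 width limma called 0 sites narrower and 0 wider in K20R (3185 narrower and 1637 wider at an unadjusted p under 0.05, lowest adjusted p = 0.0832). The balance depended on centring. Without it limma again called 0 and 0 sites, with 1004 narrower and 2156 wider at an unadjusted p under 0.05. On widths without centring both K20R peaks were narrower than both WT peaks at 6116 sites (14.3%) and wider at 10064 (23.6%). The width difference between genotypes had a Spearman correlation of 0.51 with the pileup difference over these sites. At a pileup of 40 to 50 reads the median width was 385 and 372 bp in WT and 374 and 380 bp in K20R. At 80 to 100 reads it was 445 and 456 bp in WT and 460 and 475 bp in K20R. The lists agreed less at low pileup. At 10 to 15 reads the median was 278 and 220 bp in WT and 218 and 220 bp in K20R, and at 20 to 25 reads 326 and 292 bp against 289 and 295 bp.

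Motif strength and K20R differences went together on the centred scale. When kept sites were split by motif score into 4 groups of equal size, the median difference was -0.23 in the lowest group (between -0.26 and -0.20 over the 4 pairs of lists), and in the highest it was 0.22 (0.15 to 0.29). After quantile normalisation these medians were -0.07 and 0.05, so most of the difference went with the wider spread of the K20R lists. The WT lists also differed from each other with base composition. The first minus the second WT list had a Spearman correlation of -0.44 with GC content over kept sites, and the first minus the second K20R list 0.02. Differences between genotypes by GC content therefore cannot be read apart from which WT list is used.

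A pair of chromosome segments differed from the rest of the genome in K20R against WT, and the X chromosome differed in its low pileup. On chromosome 14 from 40 to 70 Mb, 122 sites were lost, 18.1% of lost and kept sites, against 8.21% outside the segments and the sex chromosomes. The 552 kept sites there had a median pileup of 57 and 32 reads in WT and 34 and 32 in K20R, and a median centred difference of -0.54 (-0.57 to -0.49 over the 4 pairs). The Tnfrsf19 and Ngdn sites lie in that segment. On chromosome 8 from 80 to 110 Mb, 24 sites were lost (3.55%), and the 653 kept sites had 50 and 29 reads in WT, 69 and 65 in K20R and a median difference of 0.25 (0.18 to 0.32). Kept sites on the X chromosome (1020) had 30 and 16 reads in WT and 28 and 27 in K20R, low in all lists. Their median difference was -0.006 on the centred scale (-0.030 to 0.022 over the 4 pairs) and 0.18 after quantile normalisation (0.17 to 0.19). On X 68 sites were lost (6.25%). These regions were taken from earlier results of these data, and the copy number of the segments was not tested, since the lists hold no reads. Without these regions there were 3692 lost, 185 gained and 41271 kept sites.

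Lost sites were counted in gene groups that matter in these cells. Counted within 3 kb of a start site, 730 of 21924 protein-coding genes (3.33%) had a lost site and 53 (0.242%) a gained one, and 27.5% had a kept site. Of 22 pluripotency genes 9 had a kept site and 0 a lost or gained one. Of 21 mesoderm and cardiac genes 8 had a kept site and again 0 a lost or gained one. With shares of this size, 0 of about 20 genes is near the background.

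At Pou5f1, which encodes OCT4, the kept site had 50 and 14 reads in WT and 17 and 12 in K20R, and the difference in centred fold enrichment did not pass (-0.87 ± 0.34, SE; limma, adjusted p = 0.056). On pileup alone it was lower (adjusted p = 0.0286), and with quantile normalisation it did not pass (0.432 for fold enrichment, 0.439 for pileup). The WT lists lay far apart there, and K20R overlapped them. At Tdgf1, a co-receptor of Nodal, it had 48 and 37 reads in WT and 45 and 42 in K20R. The centred fold enrichment fell by 1.29 (SE 0.26, limma, adjusted p = 0.000746) with overlapping pileups, and the call was lost on pileup (adjusted p = 0.504). On centred fold enrichment Tdgf1 was the single pluripotency site called, and a site of Klf4 (36 and 36 reads in WT, 27 and 24 in K20R) passed only after quantile normalisation of fold enrichment, where K20R was higher (limma, adjusted p = 0.0434). At Mesp1, a regulator of early mesoderm, the site had 77 and 65 reads in WT and 129 and 128 in K20R. Its centred fold enrichment was higher by 0.69 (SE 0.25, limma, adjusted p = 0.0412), and it did not pass after quantile normalisation (limma, adjusted p = 0.211). Nor did the Mesp1 site pass on pileup (limma, adjusted p = 0.0823) or on pileup with quantile normalisation (0.51).

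Of 16 genes for cohesin, CTCF and acetylation, 9 had a kept site and 1 a lost one. The lost site near Nipbl, the cohesin loader, had 12 and 7 reads in the WT lists, and a kept site next to it had 48 and 40 in WT and 47 and 74 in K20R. Of the 10 kept sites of this group 1 was lower and 2 were higher, near the shares over all kept sites (13.9% and 15.6%), and 0 were called on all 3 scales. The Smc3 site, of a core cohesin subunit, had 66 and 44 reads in WT and 78 and 75 in K20R, and its call (limma, adjusted p = 0.018) was lost after quantile normalisation (0.171) and on pileup (0.345). Of 21 imprinted genes 9 had a kept site and 2 a lost one, at Dlk1 (11 and 15 reads) and at Nnat (11 and 10). At Peg10 the kept site had 54 and 38 reads in WT and 100 and 104 in K20R (0.78 ± 0.20, SE, limma, adjusted p = 0.00595). It passed on pileup (limma, adjusted p = 0.00272) but not after quantile normalisation of fold enrichment (0.0779). Of the 15 kept sites of imprinted genes 5 were higher and 1 lower, where 15.6% and 13.9% of all kept sites were, and 0 of the 5 were higher on all 3 scales. The 1 lower site, at Gnas, was lower on all 3 scales (limma, adjusted p = 0.00422 centred, 0.0343 quantile normalised and 0.0427 on pileup). It had 48 and 24 reads in WT and 20 and 25 in K20R, so the pileups overlapped. On pileup with quantile normalisation it did not pass (limma, adjusted p = 0.327). Another kept site of Gnas had 31 and 33 reads in WT and 25 and 38 in K20R and was not called (limma, adjusted p = 0.281).

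Hox genes, in whose clusters CTCF sites separate active from silent domains, had kept sites at 12 of 39 genes. Hoxb7 and Hoxb8 shared 1 lost site with 12 and 9 reads. Of the 13 kept sites 6 were higher in K20R and 0 lower, where 15.6% and 13.9% of all kept sites were. The Hoxa3 site had 93 and 98 reads in WT and 177 and 173 in K20R, without overlap (1.24 ± 0.28, SE; limma, adjusted p = 0.00175). At Hoxd8 it had 53 and 29 reads in WT and 71 and 62 in K20R. No site of the Hox group was among the 633 called higher on all 3 scales.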

How the data were processed

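The authors trimmed reads with Trim Galore, aligned them to mm10 with Bowtie 2, removed low-quality alignments, duplicates and blacklisted regions, subsampled all CTCF libraries to one read number, and called peaks per library with MACS 2. Which input served as control is not given in the sources used here. Deposited lists give each peak's position, score (not used), fold enrichment (a ratio over local background), −log10 p-value and −log10 q-value. The lists hold no reads.

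Pileup and background were solved from the deposited fold enrichment and −log10 p-value; a whole-number pileup matched the p-value within 0.01 for 100% of peaks. Peaks were merged at an overlap of at least 1 bp. No peak ended past its chromosome in GRCm38. Percentiles rank the fold enrichment of each list's own peaks. Fold enrichment and width of kept sites were tested with limma 3.58.1 in R 4.3.3 (log2 values with no pseudocount, median centring, moderated variance with a trend, Benjamini-Hochberg adjusted p under 0.05), and peak numbers with a two-sided exact permutation test. Fitted p-values measure the spread between 2 libraries of each genotype. They do not measure the spread between inputs of a genotype if its lists share the 1 input that the labels give. Intervals are 95% Wilson intervals. Genes came from the GENCODE basic annotation on the same build. Weighted kept sites match the deciles of lost sites by mean WT percentile, or of gained sites by mean K20R percentile. Named sites were the 10 lost and 10 gained sites of highest mean percentile, the 5 such lost sites within 3 kb of a coding start, the 8 kept sites with the largest difference in each direction among those past the test and not overlapping in centred fold enrichment (outside the sex chromosomes and both segments of chromosomes 14 and 8), and the 3 strongest kept sites. From the gene lists, genes with a lost or gained site were named. Pou5f1, Tdgf1, Klf4, Mesp1, Smc3, Peg10, Gnas, Hoxa3 and Hoxd8 were added after their values were seen. The sites, gene lists and tests were chosen with earlier results of these data known. The steps were tested on simulated data. Scripts ran in Python 3.11.15 with pysam 0.24.0, pandas 2.3.3, numpy 2.4.6, matplotlib 3.10.9 and scipy 1.17.1.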

Additional observations from a re-analysis of the deposited data

How the results depend on the processing

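The results were recomputed under 99 alternatives, of which 59 were labelled the same as reported. Counts were labelled so within a fixed ratio of the reported count, and shares within the reported interval. Width counts of 0 in both versions were included. The peak number difference was labelled so if its sign held and its p stayed at or above 0.05. With so few lists its p could not fall under 0.05, so for that difference the label says only that the sign held. Lists of one length gave 1701 lost and 1548 gained sites, motif shares of 69.5% (lost) and 73.3% (gained), and a start site share of 22.5% at lost sites. Windows of 50 bp to each side of the summit gave 330 gained sites. A stricter motif score gave 19.9% of lost and 19.7% of gained sites, a search within 50 bp gave 66.3% of lost sites, and a start site within 1 kb was found at 12.5% of lost sites. The count of kept sites lower and higher in K20R was 2828 and 2082 with a log2 difference past 1, 58 and 4635 without centring, 2459 and 1976 on pileup, and 2986 and 3447 after quantile normalisation. It was 0 and 0 on pileup with quantile normalisation, an alternative chosen after seeing the data (limma, 3081 and 2653 at an unadjusted p under 0.05). Without centring 1.24% of calls were lower, against 47.1% as reported. The cause of these changes was not tested.

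Leaving out 1 library at a time gave 5025 to 23148 lost, 287 to 3460 gained and 43693 to 46738 kept sites, the highest lost count without WT replicate 2 and the highest gained count without WT replicate 1. Lower sites numbered 2729 to 6758 and higher sites 3077 to 11115, with the lone library of a genotype assumed to vary like the other genotype. Narrower sites numbered 0 to 5 and wider sites 0 to 1. Motif shares ranged from 58.1% to 66.5% (lost) and from 53.5% to 76.8% (gained), start site shares of lost sites from 22.4% to 30.3%, and the difference in peak number from -25666.5 to -707.5.

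No replicate effect shared by the genotypes was seen at kept sites. The differences between replicates 1 and 2 of WT and of K20R had Pearson's r of -0.02 there. The labels give no batch, so this cannot tell whether replicates of the same number were processed together. With the replicate number as a block there were 6497 lower and 6869 higher sites, 55 narrower and 11 wider sites, and the peak number had an exact permutation p of 0.5, the smallest the pairing allows. Lost and gained sites lay near the lower limit of calling, with median pileups between 9 and 14 reads where the lowest called was 5. The part of read depth in these classes was not tested.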
